A study of Mus musculus with 27 samples.

Results

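The isolated closing regions without Runx peaks were 4183 stretches of chromatin in mK4 cells that lost accessibility when Runx1 was deleted, carried no ChIP-seq peak for a Runx protein, and lay alone on the chromosome. They were chosen from the deposited list of ATAC-seq regions that depend on Runx1 (8741 closing regions). A region was kept if it shared no base with any of the 3 deposited ChIP-seq peak lists (Runx1 in control cells, Runx2 in control cells and Runx2 in Runx1KO cells) and if no other closing region lay within 12.5 kb, measured edge to edge. These 4183 regions were 47.9% of the closing regions and 64.9% of the 6447 closing regions without a Runx peak, out of 55649 ATAC-seq regions in all. mK4 is a mouse cell line labelled as kidney metanephric mesenchyme. Control cells were unedited (WT), Runx1KO cells lacked exon 3 of Runx1, and ZebDKO cells (labelled Zeb1 and Zeb2 DKO) carried deletions in both Zeb genes. All were grown in serum medium to confluency without any other treatment, and each genotype was measured in 3 RNA-seq libraries. The paper describes biological triplicates, with the cells for RNA-seq cultured in triplicate. The sources used here do not give the number of clones behind a genotype, so clone and genotype cannot be told apart. The p-values between genotypes measure only the spread between these libraries, which may not cover the spread between clones.

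Runx proteins are DNA-binding factors that act together with the partner Cbfb and read a short TGTGG core in enhancers and promoters. AP-1 is a dimer of Fos and Jun family members that often sits in the same enhancers and takes part in keeping them open. ATAC-seq reports where a transposase can reach the DNA. A region can therefore close after the loss of a factor that was never found on it, and the absence of a ChIP-seq peak does not show that the factor was absent, since peak calling has a threshold.

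The rule used accessibility and ChIP-seq peaks, so neither is a result here. What it did not use were the DNA sequence of the regions, their position relative to genes, and the mRNA levels of the genes around them. The closest closing neighbour of any of these regions was 12522 bp away, and among closing regions without a Runx peak that were left out for a neighbour, the widest gap to it was 12443 bp. The smallest gap to a Runx peak was 0 bp, meaning that peak and region touched without sharing a base, and 6 regions lay within 100 bp of one. On the other side of that limit stood 1484 closing regions that were as isolated but carried a Runx peak, with a smallest overlap of 20 bp. Of the 4183 regions, 96 (2.30%) lay within 1 kb of a Runx peak, 947 (22.6%) within 10 kb and 3625 (86.7%) within 100 kb. The median gap was 26.8 kb. In the comparison sets described below it was 14.2 kb (clustered closing), 22.1 kb (isolated opening) and 20.4 kb (stable). The rule itself shaped these gaps, so they are a description only.

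Transcript levels are given as TPM, a unit that corrects for the length of a gene and the size of a library. The 9 libraries were alike in breadth, with 12541 to 12697 genes at or above 1 TPM, and the 100 most abundant genes held 18.6 to 19.7% of the TPM. Runx1 itself was at 18.7, 15.6 and 17.9 TPM in control cells and at 30.3, 30.1 and 28.5 TPM in Runx1KO cells, so the table, which sums a whole gene, does not show the loss of an exon. Zeb1, whose deletion in ZebDKO cells is also partial, stood at 15.1, 14.2 and 15.6 TPM in control cells and at 16.8, 16.6 and 14.8 TPM in ZebDKO cells. Of the defining markers of metanephric mesenchyme, Pax2 (mean 313 TPM) and Osr1 (66.4 TPM) were present in control cells while Wt1 was at 0.167 TPM and Six2 was near 0. The summed TPM of 11 nephron epithelium markers was 293 to 323 in control, 3230 to 3330 in Runx1KO and 1607 to 1665 in ZebDKO libraries. The sum of 6 blood cell markers was 2.7 to 3.5, 47.0 to 54.5 and 27.5 to 30.4 TPM in the same order, and rested in Runx1KO cells on Csf1r (mean 29.7 TPM) and Laptm5 (18.9 TPM), with Ptprc and Hbb-b1 at 0 TPM in every genotype, Itgam at 0 TPM in Runx1KO cells and Cd68 at a mean of 2.03 TPM there against 2.17 TPM in control. The sum of 6 endothelium markers was 5.8 to 7.4, 1.0 to 1.3 and 4.2 to 6.4 TPM.

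To show what the DNA of these regions looks like, 8 stretches of 100 bases are printed from mm9, on the plus strand. They come from regions linked to genes whose mRNA fell most in Runx1KO cells among genes with no other closing region, taken in order of the fall. Each is centred on the Runx consensus TGTGGT or the AP-1 consensus TGACTCA nearest to the middle of the region, or on the middle where the region held neither. Capitals mark each match on either strand. Stretches that touched an annotated exon, 14 in all, were passed over.
Rgcc, chr14:79700920-79701019: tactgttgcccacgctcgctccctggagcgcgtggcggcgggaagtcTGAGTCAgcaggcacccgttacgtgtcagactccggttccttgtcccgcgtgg
Gnpda2, chr5:69983323-69983422: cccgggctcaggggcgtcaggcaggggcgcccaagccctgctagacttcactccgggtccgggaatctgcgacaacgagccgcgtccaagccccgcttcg
Adh7, chr3:137911179-137911278: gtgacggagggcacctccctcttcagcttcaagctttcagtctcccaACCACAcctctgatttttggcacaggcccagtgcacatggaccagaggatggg
Fmnl1, chr11:103063219-103063318: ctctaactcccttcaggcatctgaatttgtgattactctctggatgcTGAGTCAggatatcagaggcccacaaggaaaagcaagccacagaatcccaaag
Ifi205, chr1:175962010-175962109: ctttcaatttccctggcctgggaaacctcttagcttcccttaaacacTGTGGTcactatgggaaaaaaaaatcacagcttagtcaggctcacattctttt
Capn6, chrX:140261960-140262059: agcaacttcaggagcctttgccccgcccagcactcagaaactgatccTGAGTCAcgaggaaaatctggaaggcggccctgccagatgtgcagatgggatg
Mt2, chr8:96695346-96695445: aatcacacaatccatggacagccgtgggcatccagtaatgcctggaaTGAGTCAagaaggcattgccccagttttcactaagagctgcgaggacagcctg
Cacng7, chr7:3332135-3332234: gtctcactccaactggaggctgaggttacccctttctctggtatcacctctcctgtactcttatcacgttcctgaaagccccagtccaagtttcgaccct

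The stretches at Rgcc, Fmnl1, Capn6 and Mt2 carried an AP-1 match, those at Adh7 and Ifi205 a Runx match, and those at Gnpda2 and Cacng7 neither. Most lay at the gene's own start. The middle of the region was 0.138 kb downstream of the start of Rgcc (annotated under an older symbol in this build), 0.203 kb downstream for Gnpda2, 0.249 kb upstream for Ifi205, 0.101 kb upstream for Capn6, 0.870 kb upstream for Cacng7 and 1.04 kb upstream for Mt2. The region of Adh7 lay between genes, 30.3 kb downstream of its start, and that of Fmnl1 lay 30.6 kb downstream of its start, in an intron of 1700023F06Rik. The nearest Runx peak was 25.3 kb away from the region at Rgcc, 34.5 kb at Gnpda2, 43.5 kb at Adh7, 26.7 kb at Fmnl1, 118 kb at Ifi205, 42.6 kb at Capn6, 42.7 kb at Mt2 and 29.8 kb at Cacng7.

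The genes beside these stretches differed widely in level. Mt2, a metallothionein that binds zinc and copper, was by far the most abundant of them, with 1098, 1079 and 1116 TPM in control cells, 137, 130 and 167 TPM in Runx1KO cells and 562, 590 and 613 TPM in ZebDKO cells. None of its libraries overlapped between genotypes, and on the log2(TPM+1) scale it fell by 2.93 in Runx1KO cells (SE 0.087, limma adjusted p = 2.14e-07). Capn6, a calpain family member without protease activity, was at 23.5, 20.5 and 24.2 TPM in control and at 2.1, 1.8 and 2.0 TPM in Runx1KO libraries, which did not overlap (log2 difference -3.00, SE 0.078). Adh7, an alcohol dehydrogenase, was at 16.8, 16.0 and 17.2 TPM in control and at 0.9, 0.6 and 0.5 TPM in Runx1KO libraries, again without overlap (log2 difference -3.41, SE 0.097). Gnpda2, an enzyme of amino sugar metabolism, stood at 13.1, 12.8 and 12.9 TPM against 0.3, 0.1 and 0.2 TPM. All these libraries lay apart, as they did for Cacng7 (a calcium channel gamma subunit), Fmnl1 (a formin that acts on actin) and Ifi205 (an interferon-inducible gene).

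The regions were compared with 3 other sets of regions that also carried no Runx peak. The first held the 2264 closing regions with a closing neighbour within 12.5 kb, called clustered closing regions here. The second held 5623 isolated opening regions, which gained accessibility in Runx1KO cells and had no other opening region within 12.5 kb. The third held 26922 stable regions from the deposited list of regions within the authors' 2-fold limit. The unit of these comparisons is the region, the lists hold no values per replicate, and the intervals cover counting error only.

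In size and base composition the isolated closing regions were close to the clustered ones. Their median width was 577 bp (quartiles 440 and 765 bp, range 218 to 2197 bp), the same as in clustered closing regions, against 490 bp in opening and 522 bp in stable regions. Their median GC content was 48.9% (quartiles 45.8 and 52.5%), against 49.0%, 50.8% and 51.2%. The middle of the typical isolated closing region lay 20.9 kb from the nearest transcription start (quartiles 6.47 and 57.0 kb), against 25.4 kb in clustered closing, 14.6 kb in opening and 11.9 kb in stable regions. A stable region lay within 5 kb of 24.7% and within 50 kb of 79.1% of the isolated closing regions. These shares were 22.4 and 78.6% for clustered closing regions and 33.8 and 88.4% for opening regions. An opening region lay within 50 kb of 36.0% of the isolated closing regions, and a closing region with a Runx peak within 50 kb of 16.3%. The regions were spread over the autosomes and chromosome X, from 0.516 per Mb on chromosome X (86 regions) and 0.990 on chromosome 12 to 2.71 on chromosome 19.

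Few of these regions were promoters. Of the 4183, 367 (8.77%, 95% Wilson interval 7.95 to 9.67) had their middle within 1 kb of a transcription start, 92 (2.20%) fell in an exon, 1901 (45.4%) in an intron and 1823 (43.6%) between genes. Promoters made up 18.5% of stable regions, and this difference passed a two-sided Fisher exact test (adjusted p = 6.97e-61 over 12 position comparisons). The share was also lower than the 10.3% of opening regions (adjusted p = 0.0218) and higher than the 7.11% of clustered closing regions (adjusted p = 0.0297), both by less than 2 percentage points. Neither of these smaller differences held under each alternative. With an isolation distance of 5 kb the difference to clustered closing regions had an adjusted p of 0.272, without ChIP-seq peaks within 1 kb it had one of 0.0526, and with 50 kb the difference to opening regions had one of 0.859. Introns held more of the isolated closing regions than of opening (37.1%) or stable regions (35.5%).

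For the sequence of the regions, 18 motifs were searched as plain letters over the whole region, on both strands, and a region counted if it held at least 1 match. A match describes the letters, not binding. The Runx consensus TGTGGT was found in 1934 of the 4183 isolated closing regions (46.2%), although none carried a Runx peak. That compared with 33.4% of opening regions, a difference of 12.8 percentage points (95% Newcombe interval 10.9 to 14.8, adjusted p = 3.33e-37 by Fisher exact test over 54 comparisons), and with 32.6% of stable regions, a difference of 13.7 points (12.1 to 15.3, adjusted p = 6.53e-64). Clustered closing regions held it in 43.7%, and the difference of 2.51 points had an interval that included 0 (-0.0391 to 5.04, adjusted p = 0.112). Over all 55649 regions, bound ones included, the share was 40.5%. At least 2 matches were present in 606 (14.5%) of the isolated closing regions, with 6 at most.

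As a description, the 1484 isolated closing regions that did carry a Runx peak held the Runx consensus in 80.5% (95% Wilson interval 78.4 to 82.4), and the 637 of them with a Runx1 peak of control cells in 85.4%. Those regions were wider, with a median of 726 bp. Their AP-1 share was 43.5%, their CATCTG share 56.5% and their GGAATG share 47.8%.

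The AP-1 consensus TGACTCA was found in 1972 isolated closing regions (47.1%). The share was higher than in stable regions (36.5%) by 10.7 points (9.06 to 12.3, adjusted p = 1.68e-38), while opening regions stood at 45.3%, a difference of 1.81 points (-0.183 to 3.81, adjusted p = 0.141), and clustered closing regions at 46.3%, a difference of 0.853 points (-1.70 to 3.40, adjusted p = 0.630). Thus the Runx consensus set these regions apart from both opening and stable regions, and the AP-1 consensus from stable regions. Both consensus sequences were present in 927 regions (22.2%), against 20.9% of clustered closing, 16.3% of opening and 12.9% of stable regions. Neither was present in 1204 (28.8%), against 30.9%, 37.6% and 43.9%.

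The E-box CATCTG, read by Twist and related basic helix-loop-helix factors, was the most frequent match of the isolated closing regions, in 2140 (51.2%). It has 6 letters against 7 in the AP-1 consensus, so their shares cannot be ranked directly. Over all 55649 regions, bound ones included, the shares were 42.0% for CATCTG and 37.3% for AP-1. Opening regions held it in 37.3%, which was 13.8 points lower (11.8 to 15.8, adjusted p = 1.45e-41), stable regions in 39.6%, which was 11.6 points lower (9.93 to 13.2, adjusted p = 8.63e-44), and clustered closing regions in 52.5% (adjusted p = 0.438). The other E-box form, CAGGTG, which Zeb and Snail repressors read, went the opposite way. It was found in 1212 isolated closing regions (29.0%) against 64.7% of opening regions, a difference of -35.7 points (-37.6 to -33.8, adjusted p = 5.21e-273), and against 43.1% of stable regions, a difference of -14.1 points. The related CAGGTA, which shares its first 5 letters, was in 13.9% of isolated closing, 39.9% of opening and 23.6% of stable regions. Over all 55649 regions CAGGTG was in 47.1% and CAGGTA in 26.4%.

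**Figure D1:**
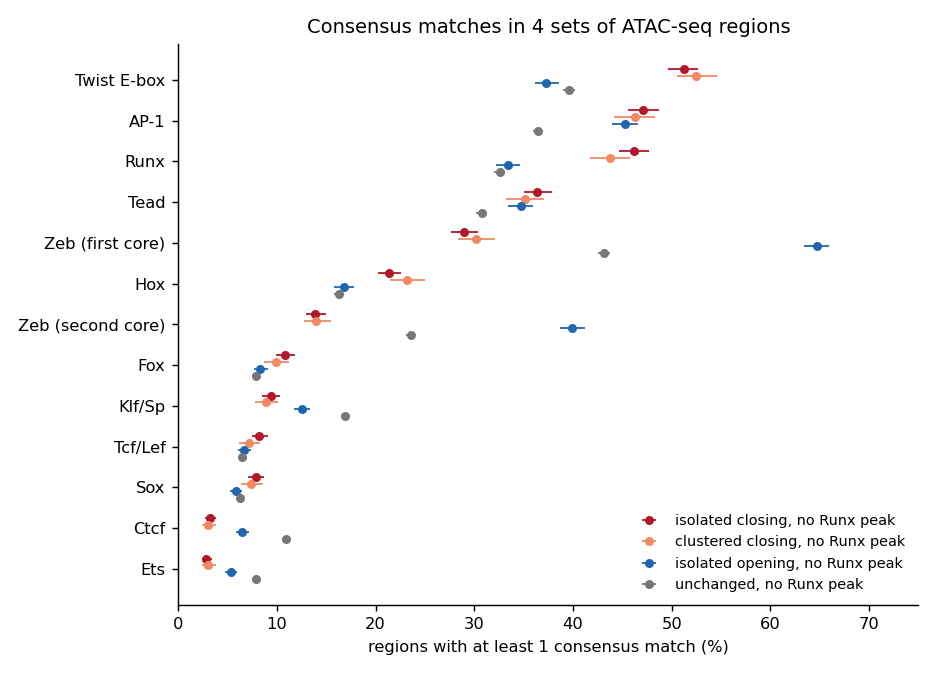
Share of regions (percent, horizontal axis) that hold at least 1 consensus match, for each motif (vertical axis) in isolated closing, clustered closing, isolated opening and stable regions, all without a Runx peak. Bars on the points are 95% Wilson intervals, the first Zeb core is CAGGTG and the second CAGGTA. The isolated closing regions sit beside the clustered ones, hold more Runx and Twist E-box matches than opening and stable regions, and far fewer Zeb matches (29.0% against 64.7% in opening regions for CAGGTG).

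Smaller differences ran through the other motifs. GGAATG, read by Tead factors, was in 36.4% of isolated closing and 30.8% of stable regions (adjusted p = 2.24e-12), while opening regions held it in 34.7% (adjusted p = 0.141). The Hox form TTTATNG was in 21.4% against 16.8% of opening and 16.3% of stable regions, and the Fox form GTAAACA in 10.8% against 8.32% and 7.83%. Several motifs were rarer than in opening and stable regions. GGGCGGG, read by Klf and Sp factors, was in 9.37% against 12.5% of opening and 16.9% of stable regions, the Ets form CCGGAAG in 2.84% against 5.34% and 7.92%, and the motif of Ctcf, an insulator protein, in 3.20% against 6.49% and 10.9%. Promoters were 8.77% of isolated closing and 18.5% of stable regions, and GGGCGGG was in 42.5% of the isolated closing regions at promoters. The part of position in these differences was not tested. CTTTGAT of Tcf and Lef factors (8.22% against 6.70% and 6.50%) and ACAATGG of Sox factors (7.84% against 5.83% and 6.24%) were somewhat more frequent. Against clustered closing regions 1 of the 18 motifs differed, the form TCAGGTTTC read by Six2 and its relatives, which was in 0.908% of isolated and 1.63% of clustered regions (adjusted p = 0.0298). The cAMP response element TGACGTCA (0.908% of isolated closing regions), AACCNGTT of Grhl factors (3.83%), and the longer motifs of Nfi (0.143%) and Srf (2.70%) did not reach an adjusted p of 0.05 in any comparison.

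The place of the matches within the regions differed by motif. In isolated closing regions the density of AP-1 matches was 1.90 per kb within 25 bp of the middle and 0.608 per kb at 175 to 200 bp, but the same peak was present in opening (2.20 and 0.548 per kb) and stable regions (1.78 and 0.520 per kb). Runx matches were flatter, at 1.23 per kb in the middle and 1.01 per kb at 175 to 200 bp, and stood above opening (0.765 and 0.736 per kb) and stable regions (0.719 and 0.706 per kb) in each of the 16 classes of distance out to 400 bp, with the smallest gap at 225 to 250 bp (0.827 against 0.812 in opening and 0.675 per kb in stable regions). CATCTG went from 1.39 to 1.06 per kb in isolated closing regions. CAGGTG was sparser in the middle than at the flank of isolated closing regions (0.383 and 0.558 per kb), where opening regions had a peak (2.80 and 1.66 per kb). Within the central 200 bp alone, Runx was in 20.8% of isolated closing against 13.4% of opening and 12.6% of stable regions, AP-1 in 27.4% against 29.0% and 22.2%, and CAGGTG in 8.87% against 38.7% and 18.3%.

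**Figure D2:**
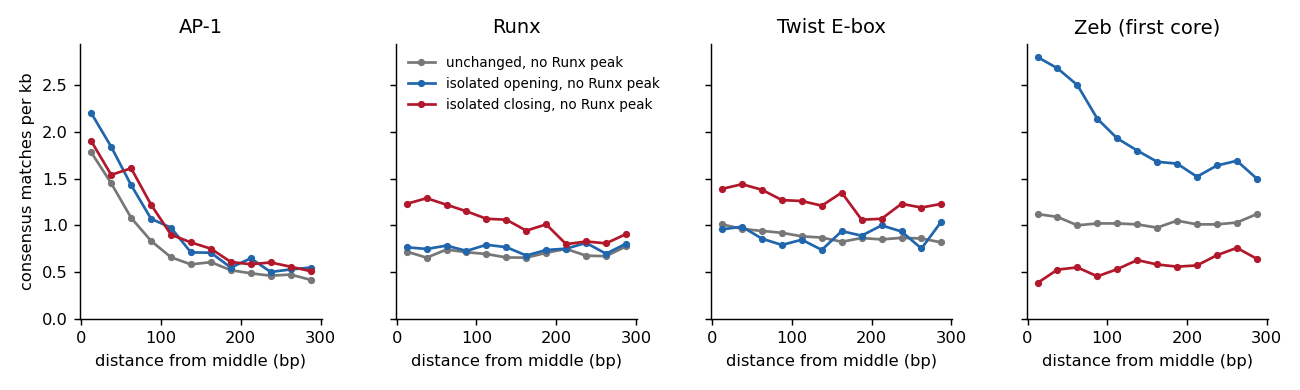
Density of consensus matches (per kb, vertical axis) by distance from the middle of the region (bp, horizontal axis) for AP-1, Runx, the Twist E-box and the first Zeb core CAGGTG, with 1 line each for isolated closing, isolated opening and stable regions. AP-1 peaks in the middle in all 3 sets, Runx stands higher in isolated closing regions than in both other sets at each distance shown, and CAGGTG peaks most in opening regions (2.80 per kb within 25 bp of the middle against 0.383).

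Width and base composition were also examined, since longer regions have more room for a match. From the narrowest to the widest quartile of regions, the Runx share of isolated closing regions was 36.9, 42.3, 48.0 and 57.7%, against 23.9, 31.6, 38.7 and 51.1% in opening and 24.4, 30.8, 36.5 and 43.2% in stable regions. In every width quartile the isolated closing regions were the highest of these sets. From the lowest to the highest quartile of GC content the Runx share was 50.3, 49.8, 49.1 and 35.8% in isolated closing and 29.9, 35.4, 32.7 and 34.1% in opening regions, so the gap was small in the quartile richest in GC. The AP-1 share fell with GC content in isolated closing regions, from 57.4 through 53.7 and 46.0 to 31.5%.

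The 367 promoter regions among them had another composition than the rest (median GC 57.1%, median width 686 bp). They held the Runx consensus in 35.1% and AP-1 in 24.8%, against 48.5 and 49.6% of the 1901 intronic and 46.4 and 49.1% of the 1823 regions between genes. GGGCGGG was in 42.5% of promoter regions, against 6.47% in introns and 6.03% between genes, and the Ctcf motif in 11.2% against 2.52 and 2.36%. These shares by place and those of the regions with a Runx peak were chosen after the other results had been seen and carry no test.

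The factors that read these motifs were then examined in the RNA-seq. Differences are on the log2(TPM+1) scale, which makes changes of weakly expressed genes look smaller than they are, and a gene was called lower or higher at an absolute log2 difference over 1 with a limma adjusted p under 0.05. Runx1 differed by 0.74 (adjusted p = 6.72e-05) and Runx2 by -0.45, neither of which was called. Fos was at 400, 413 and 422 TPM in control and at 1467, 1549 and 1485 TPM in Runx1KO cells, without overlap, a rise of 1.86 (adjusted p = 1.72e-08). Fosb rose by 1.81 and Atf3 by 1.43, while Junb differed by -0.25, Jun by 0.87 and Fosl1 by 0.16. Twist2 was at 920, 889 and 934 TPM in control and at 348, 349 and 356 TPM in Runx1KO cells, without overlap. Its log2 difference was -1.38 (limma adjusted p = 2.69e-08). It was the only called gene among 4 tested Twist and E-box factors. Twist2 was itself linked to 2 of the regions, among 6 closing regions, 3 of which carried a Runx peak, and to 9 opening regions. Zeb1 was at 0.1, 0.2 and 0.2 TPM in Runx1KO cells, a log2 difference of -3.77 from the control values given above (limma adjusted p = 2.78e-08). Zeb1 was also linked to 2 of the regions, among 4 closing regions of which the other 2 carried a Runx peak. Zeb2 was lower as well (-2.37). The Snail factors Snai1 (-0.76) and Snai2 (0.75) were not called, although the libraries of both lay apart from control. Of the Tead factors none was called, although all 4 lay apart from control in Runx1KO cells. Tead1 differed by 0.20, Tead2 by -0.17 and Tead4 by 0.81, and Tead3, with a mean of 18.9 TPM in Runx1KO against 38.8 TPM in control cells, stood at the fold limit (adjusted p = 3.41e-06).

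Regions were assigned to genes by the rule of the GREAT tool, in which each gene owns 5 kb upstream and 1 kb downstream of its start and reaches further, up to 1000 kb, until the next gene's domain. Of the 24953 genes in the table, 21469 could be placed on mm9, and 4898 of these were linked to at least 1 isolated closing region. Of the linked genes 3139 passed the filter of 1 TPM in at least 3 of the 6 libraries, 1759 did not, and 488 were at 0 TPM in all 9 libraries. Among the regions, 3 were linked to no gene, 510 to 1 gene and 3670 to 2 or more.

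Among the 3139 tested genes linked to an isolated closing region, 351 (11.2%) were lower and 197 (6.28%) higher in Runx1KO than in control cells. Over all 13067 genes tested, 5.10% were lower and 7.91% higher. The median log2 difference was -0.11 in linked genes and -0.06 over all. Most regions had no called gene in reach. Of the 3513 regions linked to a tested gene, 667 (19.0%) were linked to a lower gene, 271 (7.71%) to a higher gene, 15 to both and 2590 to none that was called. Clustered closing regions were linked to a lower gene in 28.6% and opening regions in 6.86%. Most isolated closing regions were linked to several genes, and regions that shared a gene were each counted. The shares of regions can therefore not be set beside the shares of genes. Neighbouring regions in a cluster may count the same gene repeatedly, so the difference to clustered closing regions is a description only. The share among stable regions was not determined.

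The share of lower genes depended on what else lay in the gene's domain. Of 1899 tested genes with isolated closing regions as their only closing regions, 149 (7.85%) were lower and 143 (7.53%) higher, against 5.10% and 7.91% of all genes tested. Of these 149 lower genes, 55 had such a region within 1 kb of their start. Where other closing regions were present as well (1240 genes), 202 (16.3%) were lower and 54 (4.35%) higher. Most of these genes (1053) had a closing region with a Runx peak in their domain, and 174 of them (16.5%) were lower and 48 (4.56%) higher. Of genes with isolated closing regions alone and no opening region (860), 100 (11.6%) were lower and 16 (1.86%) higher, whereas with an opening region in the domain (1039) the counts were 49 (4.72%) and 127 (12.2%). Genes with exactly 1 isolated closing region and no other closing region (1467) were lower in 6.82%, those with 2 (292) in 13.0%, and those with 3 or more (140) in 7.86%. Genes linked to closing regions but to none of the isolated ones without a Runx peak (1178) were lower in 9.17% and higher in 6.03%. Genes linked to no closing region (7731) were lower in 2.12%.

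Distance to the transcription start separated the linked genes more than the grouping by neighbours did. Of the 120 tested genes with an isolated closing region within 1 kb of their start, 89 (74.2%, 95% Wilson interval 65.7 to 81.2) were lower and 4 (3.33%) higher, against 5.10% and 7.91% of all genes tested, with a median log2 difference of -1.86. From 1 to 5 kb, 26 of 179 genes (14.5%) were lower and 17 (9.50%) higher. From 5 to 20 kb, 44 of 665 (6.62%) were lower, from 20 to 50 kb 81 of 852 (9.51%), from 50 to 100 kb 53 of 631 (8.40%), and beyond that 58 of 692 (8.38%). Genes whose domain held no other closing region showed the same step, with 55 of 78 (70.5%) lower within 1 kb, 15 of 126 (11.9%) from 1 to 5 kb and 20 of 477 (4.19%) from 5 to 20 kb. Farther away 6.47% of such genes were lower from 20 to 50 kb, 2.97% from 50 to 100 kb and 4.00% beyond that. The share from 5 to 20 kb and those beyond 50 kb were below that of all genes tested. The distance classes were chosen after the data had been seen.

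**Figure D3:**
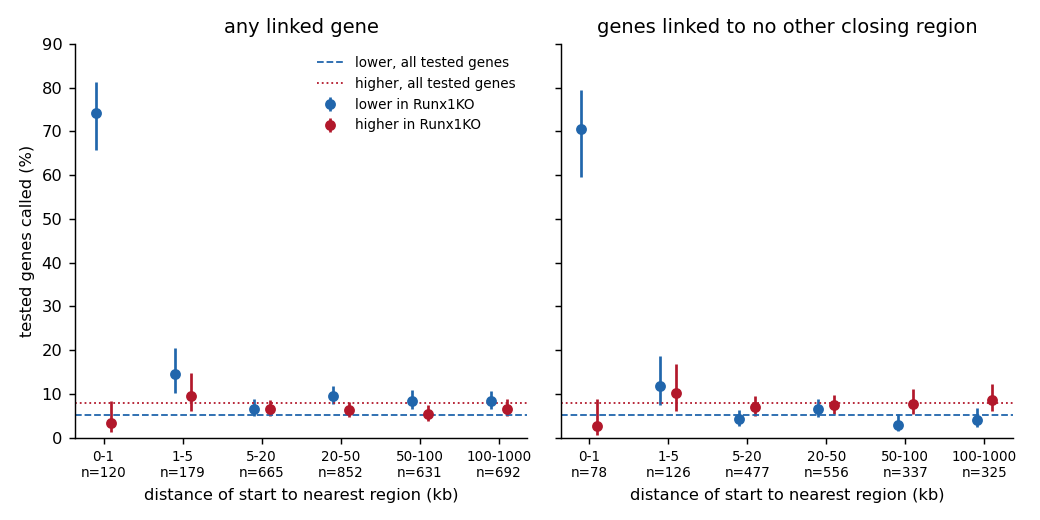
Share of tested genes called lower or higher in Runx1KO cells (percent, vertical axis) by distance from the transcription start to the nearest isolated closing region (kb, horizontal axis), for any linked gene (left panel) and for genes with no other closing region (right panel). Bars are 95% Wilson intervals and the horizontal lines mark the shares over all genes tested. In the left panel the share of lower genes is 74.2% within 1 kb and 6.62 to 14.5% in every class farther away.

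A gene that passed the filter only through its control libraries had to be lower, so these shares describe the tested genes and are not a test. In all, 208 genes had a start within 1 kb of an isolated closing region, of which 17 were at 0 TPM in all 6 libraries. Of the 120 that passed the filter, 60 were under 1 TPM in all 3 Runx1KO libraries and 19 were at 0 TPM there. Without any filter, 90 of 191 genes (47.1%) were lower and 4 higher, against 3.71% lower over all genes in that fit. Irrespective of any filter or fit, all 3 Runx1KO libraries lay below all 3 control libraries in 129 of the 208 genes (62.0%) and above them in 15 (7.21%). Over the whole table of genes the same was true of 24.1% and 18.8%. The median of the group means over all 208 genes was 2.28 TPM in control, 0.133 TPM in Runx1KO and 0.733 TPM in ZebDKO cells, and over the 120 that passed the filter 7.83, 0.683 and 4.32 TPM.

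Start genes of the other sets were read in the same way. Of 52 tested genes with a clustered closing region at their start, 34 (65.4%) were lower and 0 higher (upper 95% Wilson limit 6.88%), and of 80 with a closing region that carried a Runx peak, 54 (67.5%) were lower and 0 higher (upper limit 4.58%). At an unadjusted limma p under 0.05 with no fold limit, 2 and 6 of these genes had a positive difference. The medians were -1.81 and -1.90, against -1.86 for the isolated regions without a Runx peak, and the 95% intervals of the 3 shares overlapped. Values free of the filter did not keep the isolated regions first, and differences between the 3 sets were not tested. Without it, 47.1% of the genes at isolated regions were lower, 49.3% at clustered regions and 52.9% at regions with a Runx peak, and all 3 Runx1KO libraries lay below control in 62.0%, 70.3% and 74.3%. With an opening region at the start, 0 of 249 genes were lower (upper limit 1.52%, with 18 negative at an unadjusted limma p under 0.05) and 160 (64.3%) higher, with a median of 1.48. With a stable region there, 106 of 3395 (3.12%) were lower and 206 (6.07%) higher.

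**Figure D4:**
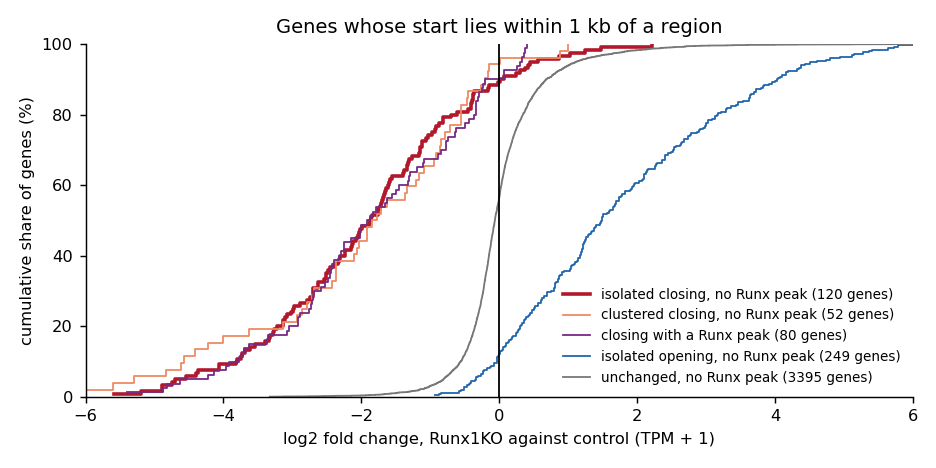
Log2 difference of Runx1KO against control on the log2(TPM+1) scale (horizontal axis) against the cumulative share of genes (percent, vertical axis), for tested genes with a transcription start within 1 kb of a region, 1 line per set of regions. The curves of the 3 closing sets run together, with medians of -1.86 for isolated closing regions without a Runx peak, -1.81 for clustered ones, -1.90 for closing regions with a Runx peak, 1.48 for opening and -0.06 for stable regions.

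The largest falls among genes whose only closing regions were isolated ones without a Runx peak are described next. The first 10 of 149 such genes were Bmyc, Dpysl3, Fam149a, Masp1, Jam3, Abcb1b, Sfrp1, Rgcc, Mndal and Eid2. In 9 of the 10 the nearest region lay within 1 kb of the start, and in Fam149a it lay 23.8 kb downstream of it, near the start of another annotated transcript. In 4 of the 10 the nearest region held a Runx match, in 2 an AP-1 match and in 5 neither. A single gene of the 10, Eid2, also had an opening region in its domain.

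Bmyc, a rodent relative of the Myc transcription factors, was at 28.4, 25.6 and 23.4 TPM in control cells and listed at 0 TPM in all 3 Runx1KO libraries (limma adjusted p = 1.89e-08). In ZebDKO cells it was at 27.2, 22.2 and 28.9 TPM, which overlapped with control (adjusted p = 0.923). Its only closing region lay on mm9 chromosome 2 from 25562119 to 25562689, with its middle 0.005 kb from the start, and held neither a Runx nor an AP-1 match. The other genes listed at 0 TPM in Runx1KO cells were Dpysl3, Abcb1b and Sfrp1, and 10 genes of general cell upkeep that were checked had no value of 0 in any library.

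Dpysl3, a protein of axon growth and the cytoskeleton, was at 24.7, 25.3 and 24.8 TPM in control cells and at 8.8, 9.7 and 9.7 TPM in ZebDKO cells, and had 5 isolated closing regions in its domain. Sfrp1, a secreted Wnt antagonist, was at 15.3, 15.3 and 16.7 TPM in control cells and listed at 0 TPM in both mutant genotypes (adjusted p = 1.66e-08 in Runx1KO and 1.94e-08 in ZebDKO cells). Abcb1b, a multidrug transporter, was at 19.4, 18.9 and 20.6 TPM in control cells and at 14.5, 16.2 and 13.6 TPM in ZebDKO cells. Abcb1b has a near copy beside it in the genome, so its reads could be split in counting and its level is uncertain.

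Masp1, a serine protease of the complement system, had 2 isolated closing regions, and the nearer, 0.181 kb inside its start, held 3 Runx matches. Its TPM was 27.4, 28.3 and 27.9 in control, 0.3, 0.2 and 0.2 in Runx1KO and 19.1, 22.2 and 21.4 in ZebDKO libraries. The 3 genotypes did not overlap, and the log2 difference in Runx1KO cells was -4.55 (adjusted p = 7.27e-09). Jam3, a cell adhesion molecule of tight junctions, was at 31.1, 29.1 and 32.0 TPM in control, 0.8, 0.1 and 0.7 TPM in Runx1KO and 5.3, 6.9 and 6.3 TPM in ZebDKO libraries. Here both mutants lay below control, with log2 differences of -4.40 (adjusted p = 1.04e-06) and -2.15 (adjusted p = 7.83e-07).

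Rgcc, a regulator of the cell cycle, was at 13.6, 14.7 and 13.5 TPM in control cells, at 0, 0.2 and 0 TPM in Runx1KO cells and at 19.2 to 21.6 TPM in ZebDKO cells. The Runx1KO libraries lay below control (log2 difference -3.81, adjusted p = 9.28e-08) and the ZebDKO libraries above it (0.51, adjusted p = 1.36e-04, under the fold limit of a call). Fam149a fell from 28.8, 27.0 and 26.5 TPM to 0.1, 0.1 and 0.2 TPM (log2 difference -4.65, SE 0.067, adjusted p = 1.01e-08). Mndal, an interferon-inducible gene of a family of close copies whose reads are hard to assign, was at 19.8, 16.3 and 19.0 TPM in control and 0.7, 0.5 and 0.2 TPM in Runx1KO cells. Eid2, an inhibitor of differentiation that binds histone acetyltransferases, was at 12.9, 13.9 and 15.5 TPM in control and 0.1, 0.4 and 0.2 TPM in Runx1KO cells, with no overlap in either gene (log2 differences of -3.73 and -3.62).

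**Figure D5:**
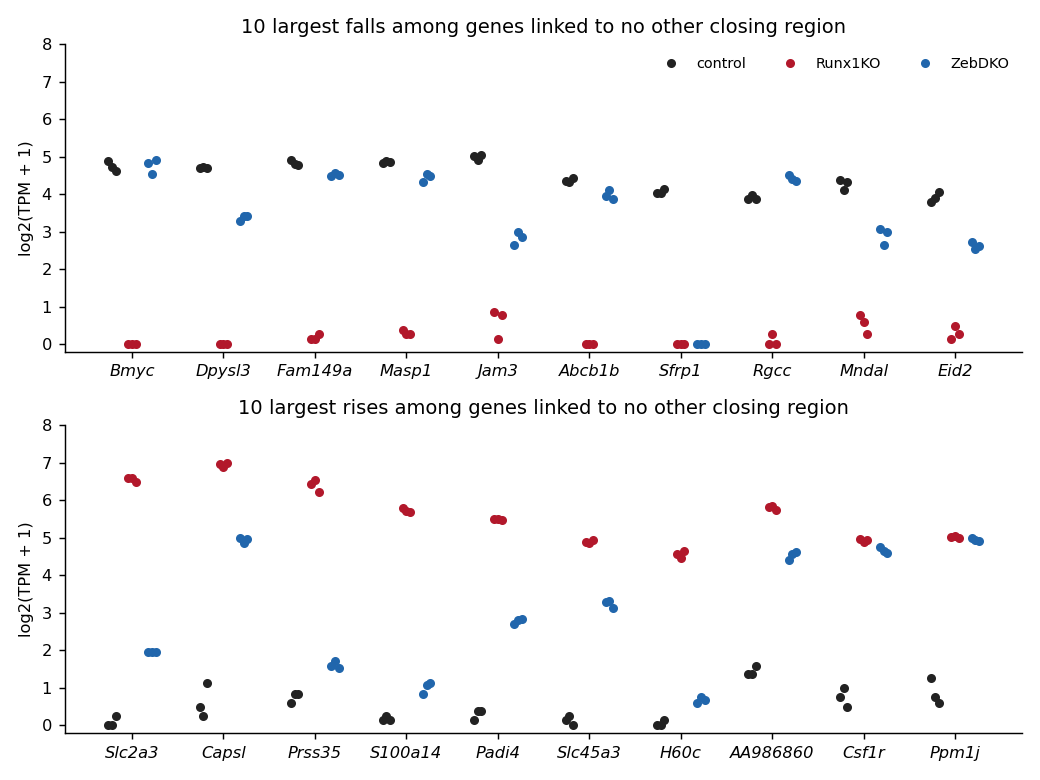
Level of each library as log2(TPM+1) (vertical axis) for the 10 largest falls (upper panel) and the 10 largest rises (lower panel) among genes with isolated closing regions as their only closing regions (gene names on the horizontal axis), 3 points each for control, Runx1KO and ZebDKO cells. Runx1KO points lie apart from control points in all 20 genes, and those of Bmyc in ZebDKO cells lie among the control points.

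Rises among genes of the same kind (143 genes) had another setting. The 10 largest were Slc2a3, Capsl, Prss35, S100a14, Padi4, Slc45a3, H60c, AA986860, Csf1r and Ppm1j. None had an isolated closing region within 1 kb of its start, the nearest lay 5.09 to 119 kb away, and all 10 also had opening regions in their domain, from 1 to 6 of them. Slc2a3, a glucose transporter, was at 0, 0 and 0.2 TPM in control, 94.9, 95.4 and 88.5 TPM in Runx1KO and 2.9 TPM in each ZebDKO library (a rise of 6.47 in Runx1KO cells, adjusted p = 6.94e-09). Capsl, a calcium-binding protein gene, went from 0.4, 0.2 and 1.2 TPM to 124, 117 and 127 TPM in Runx1KO and 30.7, 28.1 and 30.3 TPM in ZebDKO cells. Csf1r, the receptor of a macrophage growth factor, went from 0.7, 1.0 and 0.4 TPM to 30.5, 28.8 and 29.7 TPM in Runx1KO and 26.1, 24.2 and 23.1 TPM in ZebDKO cells. In all 3 genes both mutants lay above control.

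Genes with the most isolated closing regions in their domain did not move alike. Osr1, a zinc finger factor of early kidney mesenchyme, had 10 of them among 26 closing regions, with the nearest 0.106 kb from its start. Its TPM was 70.9, 64.1 and 64.3 in control, 0.3, 0.5 and 0.4 in Runx1KO and 18.7, 18.9 and 17.1 in ZebDKO libraries. Neither mutant overlapped with control, with log2 differences of -5.59 (SE 0.072, adjusted p = 6.94e-09) and -1.81 (adjusted p = 2.41e-07). Gli2, a transcription factor of the hedgehog pathway, had 8 among 21 and fell from 10.0, 9.2 and 9.6 TPM to 0.1 TPM in each Runx1KO library (log2 difference -3.27, adjusted p = 3.99e-08). It was 1 of 4 tested genes with 8 such regions, named for its larger fall. Of the others, Plpp3 was lower (-1.15), and Ate1 (-0.19) and Pdgfa (-0.57) were not called.

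Foxk1, Klf4 and Supt3 each had 9 and were not called. Foxk1, a forkhead factor, was at 124, 115 and 123 TPM in control and at 77.4, 75.1 and 72.0 TPM in Runx1KO cells, below control in every library but within the fold limit (-0.68, adjusted p = 7.84e-06). Klf4, a zinc finger factor with 18 closing regions in all, was at 76.0, 80.3 and 72.0 TPM in control and at 77.6, 82.6 and 71.3 TPM in Runx1KO cells, which overlapped (0.02, adjusted p = 0.804). Supt3, a component of a histone acetyltransferase complex, was at 13.2, 16.1 and 16.8 against 16.7, 14.4 and 16.8 TPM, with overlap as well (0.06, adjusted p = 0.637). None of the 3 had an isolated closing region nearer than 11.5 kb to its start.

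The largest changes among called genes with a region at their start were Osr1, B3galnt1, Col6a2, Ms4a4d, Bmyc and Dpysl3, all of them lower. Only Bmyc and Dpysl3 had no other kind of closing region in their domain. Closing regions with a Runx peak were also linked to Osr1 (7), Col6a2 (2) and B3galnt1 (1), and 2 clustered ones to Ms4a4d. B3galnt1, a glycosyltransferase, was at 34.8, 35.7 and 35.9 TPM in control, listed at 0 TPM in Runx1KO (adjusted p = 2.71e-09) and at 1.9, 1.6 and 2.3 TPM in ZebDKO libraries. Col6a2, a chain of the microfibril collagen VI, was at 114, 109 and 114 TPM in control, 2.9, 2.8 and 2.7 TPM in Runx1KO and 37.6, 36.3 and 39.0 TPM in ZebDKO libraries. It did not overlap in either comparison, with log2 differences of -4.89 (adjusted p = 1.64e-09) and -1.55. Ms4a4d, one of a family of similar membrane proteins, was at 29.4, 29.1 and 27.4 TPM in control, listed at 0 TPM in Runx1KO and at 2.3, 2.3 and 3.7 TPM in ZebDKO libraries.

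Linked genes were also read by pathway, from 29 lists that were drawn up with earlier results of these data known. Their counts stand beside the 5.10% lower and 7.91% higher of all genes tested, and nothing is taken as particular to a list. Of the Wnt pathway, which signals in kidney mesenchyme through frizzled receptors to Tcf and Lef factors, 15 linked genes were tested, 10 were lower and 2 higher, with a median of -1.48. The lower genes were the ligands Wnt5a and Wnt5b, the receptors Fzd1 and Fzd7, the factors Lef1 and Tcf7l1, the feedback inhibitor Axin2, the secreted antagonists Sfrp1 and Sfrp2 and the enhancer of Wnt signalling Rspo3. The higher genes were Wnt11 and Tcf7. Axin2 went from 16.5, 17.9 and 20.6 TPM to 4.2, 4.3 and 3.7 TPM in Runx1KO and 1.2, 1.0 and 1.4 TPM in ZebDKO cells, below control in both (log2 differences of -1.93 and -3.13), with isolated regions as its only closing regions. Fzd7 was at 51.6, 43.2 and 45.8 TPM in control, 16.9, 13.9 and 17.8 TPM in Runx1KO and 19.0, 18.6 and 18.4 TPM in ZebDKO cells, also apart (log2 difference -1.48 in Runx1KO cells, adjusted p = 1.39e-05).

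Of 15 tested and linked genes of collagens and matrix, 7 were lower (Col5a1, Col5a2, Col6a1, Col6a2, Col12a1, Postn and Dcn) and 2 higher (Thbs1 and Thbs2), with a median of 0.01. Col5a2, a fibril collagen chain with an isolated closing region at its start, was at 149, 148 and 150 TPM in control, 15.3, 13.2 and 13.5 TPM in Runx1KO and 151, 158 and 149 TPM in ZebDKO cells. It was apart from control in Runx1KO cells (log2 difference -3.32, adjusted p = 1.66e-08) and overlapped in ZebDKO cells (0.04, adjusted p = 0.323). Dcn, a small proteoglycan with 5 of the regions in its domain, went from 6.9, 6.6 and 8.9 TPM to 1.8, 1.4 and 1.6 TPM in Runx1KO and 1.3, 2.1 and 1.6 TPM in ZebDKO cells.

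Of 14 genes of the TGF-beta and BMP pathway 5 were lower (the ligands Tgfb2 and Inhbb, the antagonist Nog, the target Id2 and the matrix anchor Ltbp1) and Inhba was higher. Id2, an inhibitor of basic helix-loop-helix factors, was at 348, 320 and 336 TPM in control, 74.7, 68.9 and 80.0 TPM in Runx1KO and 95.1, 97.4 and 88.3 TPM in ZebDKO cells, apart from control in both, although 10 opening regions lay in its domain. Of 12 axon guidance and Eph genes 5 were lower (Sema5a, Slit2, Ntn1, Epha7 and Efnb2) and 0 higher, with 1 positive at an unadjusted p under 0.05. Of 8 mesenchymal state genes 4 were lower (Fn1, Zeb1, Twist2 and Tnc), while Vim was at 2773, 2887 and 2749 TPM against 2792, 2845 and 2782 TPM. Linked or not, 7 of 15 tested mesenchymal state genes (20 on the list) were lower and 0 higher by limma. Of 22 epithelial state genes 13 were tested, and 10 of these were higher and 0 lower by limma. Krt18, Krt19, Cldn4, Ocln, Grhl2 and Esrp1 passed the filter only through Runx1KO cells and had to be higher. Zeb1, Zeb2 and Acta2 passed it only through control cells and had to be lower, so these counts are not a test. Epithelial genes left out by the filter included Cdh1 (mean 0.2 TPM in Runx1KO cells) and Epcam (0 TPM).

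Of 9 genes of the FGF and PDGF pathway, Pdgfc was lower and Dusp6 higher, and of 6 actin and contractile genes none was called by limma, with 5 negative and 1 positive at an unadjusted p under 0.05. Among lists of transcription factors, Fos was the only called gene of 6 linked and tested AP-1 factors, Klf5 and Klf6 were higher of 6 Klf and Sp factors, Ets2 and Ehf higher of 5 Ets factors, and Twist2 lower of 2 Twist and E-box factors by limma. The Tcf and Lef list gave the 3 genes named with the Wnt pathway, and the Zeb and Snail list gave Zeb1. None was called among 5 Fox factors (4 negative and 1 positive at an unadjusted p under 0.05), 2 Tead and Yap genes, and the single linked and tested genes of the Runx, Nfi and Ctcf lists, and the lists of Grhl, Sox, Hox, Six2-related and Srf factors had no linked and tested gene. Of the markers, Osr1, Eya1 and Gdnf were lower of 4 linked and tested metanephric mesenchyme genes, none was called of 5 stroma genes (5 negative at an unadjusted p under 0.05) and 3 nephron epithelium genes (1 negative and 1 positive), the endothelium gene Flt1 was lower, and the blood cell genes Csf1r and Laptm5 were both higher. The part of the marker changes in these counts was not tested. Of all list genes, Osr1, Col5a2, Col6a2, Tgfb2, Wnt5b, Sfrp1 and Slit2 had an isolated closing region within 1 kb of their start, and all were lower.

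ZebDKO cells were read side by side, sharing the 3 control libraries with the comparison above. No ATAC-seq of ZebDKO cells was used here, so the regions are those of Runx1KO cells. Of 3141 tested genes linked to an isolated closing region, 296 (9.42%) were lower and 245 (7.80%) higher in ZebDKO cells, against 7.27% lower and 7.48% higher of all 12974 genes tested, with medians of -0.22 and -0.18. Scaling the libraries by the median ratio moved the median of all genes from -0.18 to 0.00 and the linked counts to 224 lower and 296 higher, so that higher genes became the larger group. The whole table turned in the same way, to 5.09% lower and 9.13% higher of all genes tested, beside 7.13% and 9.42% of linked genes. Genes with a region within 1 kb of their start were lower in 42 (34.1%) and higher in 14 (11.4%), with a median of -0.60, against the 74.2% and 3.33% in Runx1KO cells. The ZebDKO libraries carry other processing notes than the control libraries, and the part of that in these values cannot be told apart from genotype.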

How the data were processed

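mK4 cells of 3 genotypes were measured by RNA-seq (3 libraries each). Accessibility (ATAC-seq) and binding of both Runx proteins (ChIP-seq) in control and Runx1KO cells were deposited as lists of regions. Per the paper, the authors aligned reads with STAR to mm9, removed duplicates with sambamba, counted RefSeq genes with featureCounts and deposited TPM with 1 decimal. For ChIP-seq the authors called MACS2 peaks on combined replicates, removed peaks of the Runx1 antibody in Runx1KO cells, and deposited a fold enrichment, used here only for a stricter list. For ATAC-seq the authors required a peak in 2 or more of the 3 replicates, and sorted the regions into 3 lists with a 2-fold limit. The paper's methods describe shared peaks by overlap and state no fold limit for regions. The further columns of these lists are unlabelled. They look like a log2 fold change and a -log10 p of the authors' own comparison, and were not used. FastQC and Trim Galore, and for ZebDKO libraries featureCounts 1.6.2 and DESeq2 1.26.0, are named in the submitters' processing notes. The files keep no read number, so the depth is unknown, and whether counting used strand is not given in the sources used here.

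Regions were compared with the genome and gene models of the same build in Python 3.11.15 (pysam 0.24.0, scipy 1.17.1), by two-sided Fisher exact tests with Benjamini-Hochberg adjustment over 54 motif and over 12 position comparisons. Neighbouring regions are not independent. Gene positions came from the symbol (19530 genes) or from RefSeq synonyms (1939), a step added after a first run by symbol. Genes were tested with limma 3.58.1 (R 4.3.3, trend) on log2(TPM+1) for genes at 1 TPM or more in at least 3 of 6 libraries, with p adjusted over all genes tested. Named genes were the 10 largest falls and 10 largest rises among called genes with no other closing region and libraries that do not overlap, the 5 genes with the most regions, up to 6 called genes with a region at the start, linked genes of the lists and factors of the motifs. The regions and lists were chosen with earlier results of these data known. For the sequences shown, 2 genes on chromosome 18 were passed over. The limma step was tested on simulated data. The linked result of 1 gene list is not reported here.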

Additional observations from a re-analysis of the deposited data

How the results depend on the processing

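Of 127 alternative values for shares of regions and counts of genes, 104 kept their side of the threshold (or stayed within 1.5 times). A change of sign counted as a reversal only where the main or the alternative value passed the threshold, and none was of that kind. The AP-1 difference to opening regions passed in neither, and was 1.81 points over whole regions and -1.55 points in the central 200 bp. Counts of lower and higher genes were judged separately, so the turn of the ZebDKO counts described above is not among the changes. With an isolation distance of 5 kb the difference to clustered closing regions became 4.19 points for Runx (adjusted p = 0.0168) and 1.10 points for promoters (adjusted p = 0.272), and AP-1 against opening regions became 2.37 points. With 50 kb, AP-1 was higher than in clustered closing regions by 2.98 and than in opening regions by 3.47 points, and promoters differed from opening regions by -0.213 points. Without ChIP-seq peaks within 1 kb, promoters differed from clustered closing regions by 1.53 points (adjusted p = 0.0526). Away from transcription starts (more than 1 kb), Runx differed from clustered closing regions by 3.08 points and AP-1 from opening regions by 2.39 points. The Runx, AP-1 and promoter differences to clustered closing regions, and the AP-1 and promoter differences to opening regions, therefore changed side of the threshold in at least 1 of these, and the cause of the shifts was not tested.

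Linked genes were fewer under narrower rules, by construction. Linking to the nearest start within 100 kb gave 99 higher genes in Runx1KO cells and 191 lower and 146 higher in ZebDKO cells. A start within 20 kb gave 172 lower and 82 higher in Runx1KO and 127 lower and 112 higher in ZebDKO cells, and isolation by 50 kb gave 229 lower in Runx1KO cells. At starts within 1 kb, the 89 lower genes became 57 with a filter of 5 TPM, which tests fewer genes, and the 4 higher became 1 with that filter and 2 in a deposited 6-library table. Windows of 0.25, 0.5 and 2 kb, added after the data had been seen, gave 60, 77 and 98 lower and 1, 2 and 8 higher genes. Positions by symbol only, also added, gave 85 lower of 112 (75.9%). Leaving out 1 library gave 341 to 356 lower and 193 to 202 higher linked genes in Runx1KO, 291 to 308 and 237 to 248 in ZebDKO cells, and 87 to 90 lower and 3 to 5 higher start genes.

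The replicate numbers do not pair the libraries, since deviations of same-numbered libraries correlated at -0.05 to 0.04 across genes. With the replicate number as a block, 351 linked genes were lower and 197 higher in Runx1KO cells, and 296 and 245 in ZebDKO cells. Of 1265 further values for single motifs and genes, 1242 kept their call, 10 lost it and 13 gained it. Masking of repeats was not run because the genome given is not soft-masked, and a count model was not run because the files hold no counts. TPM moves in steps of 0.1 near 0, which limits genes of low level.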
